A study of Mus musculus with 12 samples.

Results

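At neonatal day 8, libraries of laser-captured mouse atrioventricular node came in 2 kinds, with under or over 50% of their reads in mitochondrially encoded genes (ribosomal RNA included). The libraries under 50% were 2 wild-type (WT 1, WT 2) and 2 heterozygous ones (HET 2, HET 3), and those over 50% were 2 wild-type (WT 5, WT 6) and 1 heterozygous (HET 6), together 7 of the 12 libraries of the series. The share was 41.8% in WT 1, 43.8% in WT 2, 45.2% in HET 2 and 36.3% in HET 3, and 58.4% in WT 5, 56.1% in WT 6 and 55.9% in HET 6. HET 2 and HET 6 lay nearest to the threshold from either side, and no day 8 library lay between them. The libraries were chosen by this measured share, so it and the mitochondrially encoded genes are given as a description with no test. Nuclear genes, which entered the choice only as part of the column sum, were compared between the kinds with genotype as a term. The 5 libraries of day 10 were all over 50%, between 53.3% and 72.0%, and are given only beside the day 8 values.

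The series compared the atrioventricular node, which delays the heartbeat between atria and ventricles, in pups with an intact or a modified Tbx3 gene; the mitochondrial share was not a factor of that design. WT pups carried Tbx3-WT;BAC-Tbx3-GFP and HET pups carried Tbx3-CreERT2;BAC-Tbx3-GFP, in which 1 Tbx3 allele carries CreERT2, a recombinase switched on by tamoxifen. The labels name no treatment, every pup was FVB/NJ, and both groups carried the BAC transgene, in which Tbx3 regulatory DNA drives green fluorescence, by which the node was found. Per the labels' protocols, node tissue was cut by laser from 5 consecutive sections of 8 µm, and between about 300 and 2000 pg of RNA was amplified with a NuGEN Ovation V2 kit. Whether the libraries are from separate pups is not in the labels, so p-values measure the spread between these libraries, which may be in part technical.

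Mitochondria keep a small circular genome of their own with 13 mRNA genes for subunits of the respiratory chain, 2 ribosomal RNA genes and 22 transfer RNA genes. Both of its strands are copied as long precursors that are cut at the transfer RNAs, and among the mRNA genes mt-Nd6 alone lies on the light strand. Every other protein of the mitochondrion, including most subunits of the respiratory chain and all mitochondrial ribosomal proteins, is encoded in the nucleus and imported. Heart muscle cells are packed with mitochondria, so mitochondrial RNA is a large part of the RNA of heart tissue.

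Several nuclear genes that stood higher in the libraries over 50% are near-identical short loci, and their sequences are shown because identical loci cannot be told apart by sequence. How the authors' counting placed reads that fit several loci is not stated, so the counts of single loci, which differ even where the sequence does not, are uncertain. GENCODE M21 annotates 5 such loci as miRNA genes on GRCm38 (mm10): Gm23935 (chr16:11144125-11144181, plus strand), Gm24270 (chr9:56223715-56223771, minus strand), Gm24245 (chr4:139338304-139338360, plus strand), Gm24187 (chr13:9834469-9834525, minus strand) and Gm25911 (chr1:167340369-167340424, minus strand). Gm24270 and Gm24245 hold the 57 bases of Gm23935 exactly. Counted from 1 at the 5′ end of Gm23935, Gm24187 differs by G11A, and Gm25911 differs by G14A and lacks 1 base further on. Capitals mark the substituted base.
Gm23935: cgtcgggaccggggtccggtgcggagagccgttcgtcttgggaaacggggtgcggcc
Gm24187: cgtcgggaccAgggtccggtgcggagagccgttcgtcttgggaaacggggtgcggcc
Gm25911: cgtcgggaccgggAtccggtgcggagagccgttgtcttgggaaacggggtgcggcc
Mir6236 (chr9:110281287-110281409, plus strand), the nuclear gene with the largest difference among those that passed and were higher, is the host of the mature miRNA mmu-miR-6236 (chr9:110281353-110281371, plus strand, RefSeq, GRCm38.p6). Its seed, bases 2 to 8, is in capitals.
mmu-miR-6236: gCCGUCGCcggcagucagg

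Some libraries stood apart in ways that bear on the comparison. WT 2 and HET 3, both under 50%, had at least 1 read in 536 and 749 of 1729 olfactory and vomeronasal receptor genes, which belong to sensory tissue of the nose, against 46 to 118 in the other 10 libraries of the series. The limma comparison and the count of detected genes were therefore also computed without WT 2 and HET 3, whereas edgeR and DESeq2 were not. WT 5 had neither Xist (60.8 normalised counts), the RNA that silences 1 X chromosome in females, nor the Y-linked Ddx3y (2.10) at the level of other libraries. WT 1 had Ddx3y at 665 with Xist at 57.8, and the remaining 5 day 8 libraries had Xist at 32214 or more. The libraries held 18974142 to 29983630 reads in genes. Reads in nuclear genes numbered 12080610 to 17441900 under 50% and 9860220 to 10194020 over 50%, so that 1 read was worth 0.555 to 0.765 normalised counts in the former and 1.02 to 1.05 in the latter. Normalised counts are reads divided by 1 size factor per library.

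The mitochondrial reads that separated the libraries were mainly ribosomal RNA. As a share of all reads, mt-Rnr1 and mt-Rnr2 together took 34.8% ± 3.34 (SD, n = 4) under 50% and 49.9% ± 1.67 (SD, n = 3) over 50%, and the 2 kinds did not overlap. The 13 mitochondrial mRNAs took 6.96% ± 1.05 (SD, n = 4) under 50% and 6.93% ± 0.428 (SD, n = 3) over 50%, and here the 2 kinds overlapped. Ribosomal RNA accordingly made up 83.3% ± 1.94 (SD, n = 4) under 50% and 87.8% ± 0.939 (SD, n = 3) over 50% of the mitochondrial reads. Nuclear protein-coding genes, without the few shown apart, took 44.7% ± 2.75 (SD, n = 4) under 50% and 29.9% ± 0.920 (SD, n = 3) over 50%. Set against protein-coding reads, which share the same library, both kinds of mitochondrial RNA were higher over 50%: 1.67 ribosomal reads per protein-coding read against 0.785, and 0.232 mRNA reads against 0.157. In this tissue piece as a whole, fewer cells of a type and less RNA per cell cannot be told apart, and neither can more mitochondrial and less nuclear RNA.

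**Figure D1:**
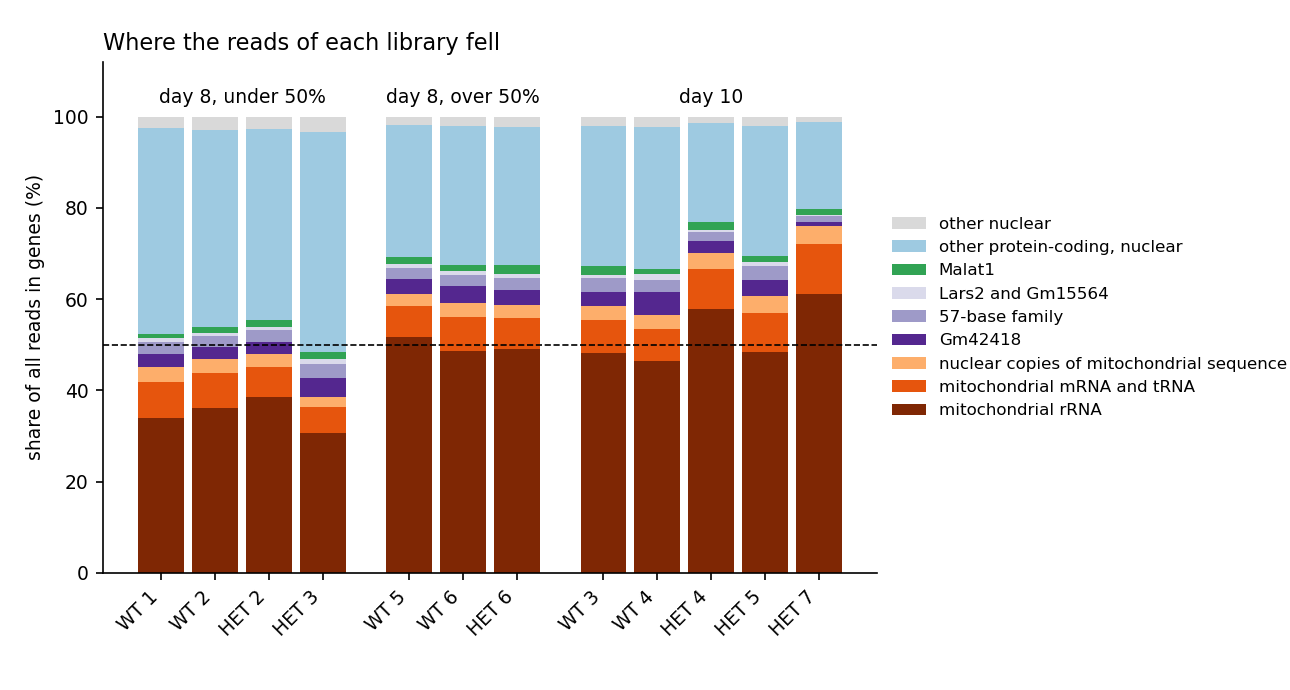
Share of all reads in genes (%, stacked bars) for each library, grouped as day 8 under 50%, day 8 over 50% and day 10; the dashed line is 50%. Mitochondrial ribosomal RNA takes 30.7% to 38.5% of reads in the 4 libraries under 50% and 48.7% to 51.8% in the 3 over 50%.

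The mitochondrially encoded genes did not all differ by the same factor. In normalised counts, mt-Rnr1, the small ribosomal RNA, was 1523290 in WT 1, 1501240 in WT 2, 1623290 in HET 2 and 1128490 in HET 3 and 4022590 in WT 5, 3477810 in WT 6 and 3385130 in HET 6, a ratio of means of 2.51. mt-Rnr2, the large ribosomal RNA, was 4117610, 4336170, 4972960 and 3327050 under 50% and 8857550, 7976400 and 8149980 over 50%, a ratio of 1.99. Both ribosomal RNAs were higher in every library over 50% than in any under 50%. Among the 13 mRNAs the ratio ran from 0.871 for mt-Nd3 to 2.63 for mt-Nd6, with a median of 1.46. It was above 1 for 12 of the 13, and for 9 of them the 2 kinds did not overlap.

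2 mRNAs stood out beside the ribosomal RNAs. mt-Nd6, a complex I subunit and the light-strand mRNA, had 20383, 23615, 21649 and 16692 under 50% and 55885, 56140.3 and 50508 over 50%. mt-Nd4l, another complex I subunit whose reading frame overlaps that of mt-Nd4, had 12559, 12495, 10847 and 7868 under 50% and 30365, 26772 and 26609 over 50%, a ratio of 2.55, whereas mt-Nd4 itself had a ratio of 1.46. No source says that strand was used in counting, so reads of mt-Nd6 and of the opposite strand cannot be told apart, nor reads from where mt-Nd4l and mt-Nd4 overlap. The cytochrome oxidase (complex IV) mRNAs mt-Co1, mt-Co2 and mt-Co3 had ratios of 1.48, 1.42 and 1.42. mt-Atp6 and mt-Atp8, the ATP synthase subunits, had ratios of 1.17 and 1.17, and mt-Cytb, of complex III, had 1.19. For these last 3 the 2 kinds overlapped. mt-Nd3 had the fewest counts of the 15 genes, with 216, 269, 230.0 and 260.0 under 50% and 216, 217 and 204 over 50%. HET 3 was the lowest library for all of these genes except mt-Nd3.

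**Figure D2:**
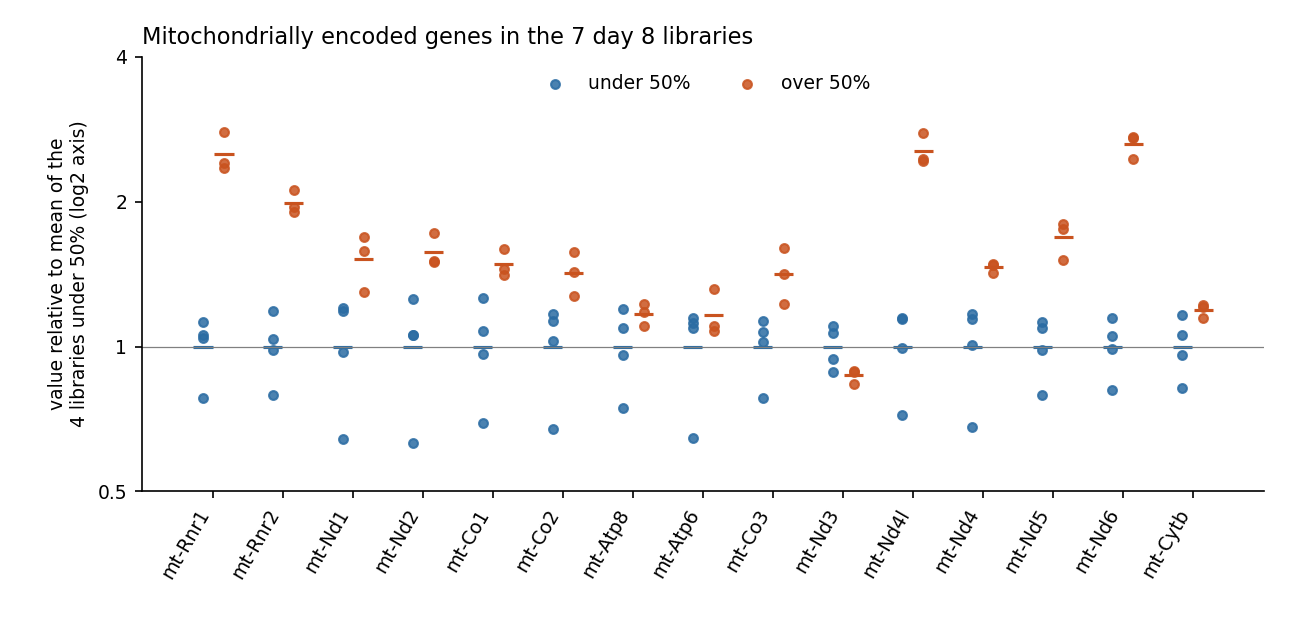
Normalised counts of the 15 mitochondrial ribosomal RNA and mRNA genes, in genome order, relative to the mean of the 4 libraries under 50% (log2 axis); each point is 1 day 8 library and each short line a mean. mt-Rnr1, mt-Rnr2, mt-Nd4l and mt-Nd6 have ratios of 1.99 to 2.63, and mt-Atp6, mt-Atp8, mt-Nd3 and mt-Cytb overlap between the kinds.

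Few nuclear genes passed the adjusted threshold between the 2 kinds of library. With so few libraries, a gene that did not pass may still differ. Of 15793 nuclear genes with a mean of at least 10, 10 were higher (0.0633%) and 3 lower (0.019%) over 50% by limma with an adjusted p under 0.05, and the median log2 difference was 0.0017. At an unadjusted p under 0.05 there were 1646 genes (10.4%), 752 higher (4.76%) and 894 lower (5.66%). The 2 kinds did not overlap for 1538 genes (9.74%), 741 higher (4.69%) and 797 lower (5.05%). Of the 10 higher genes, 3 are copies of mitochondrial sequence, 2 belong to the 57-base family, 3 are the noncoding loci Mir6236, Gm42418 and Gm15564, and the others were Malat1 and Nexn. The lower genes were Prelp, Ltbp4 and Kcnj15.

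The number depended on the libraries and the tool. edgeR called 7 genes (0.0443%), all of them higher and all among the 13, and DESeq2 called 306 (1.98% of 15486), 125 higher (0.807%) and 181 lower (1.17%). These shares, with the unadjusted 4.76% higher and 5.66% lower, are the background for the counts of each list below. At an adjusted p under 0.10 limma called 39 genes (0.247%). Without WT 2 or without WT 6 only Malat1 and Gm10222 passed (2 genes each), without WT 1 7 genes did and without HET 3 8 did, whereas 36 passed without HET 2 and 113 without HET 6. Without WT 2 and HET 3 together, 0 genes passed by limma, with 1262 at an unadjusted p under 0.05. With each library scaled to its nuclear reads in place of the authors' size factors, the median difference over all genes moved to -0.14 and 29 genes passed, 9 higher and 20 lower. The list medians below moved downward too, so the sign of those near 0 depended on the scaling.

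**Figure D3:**
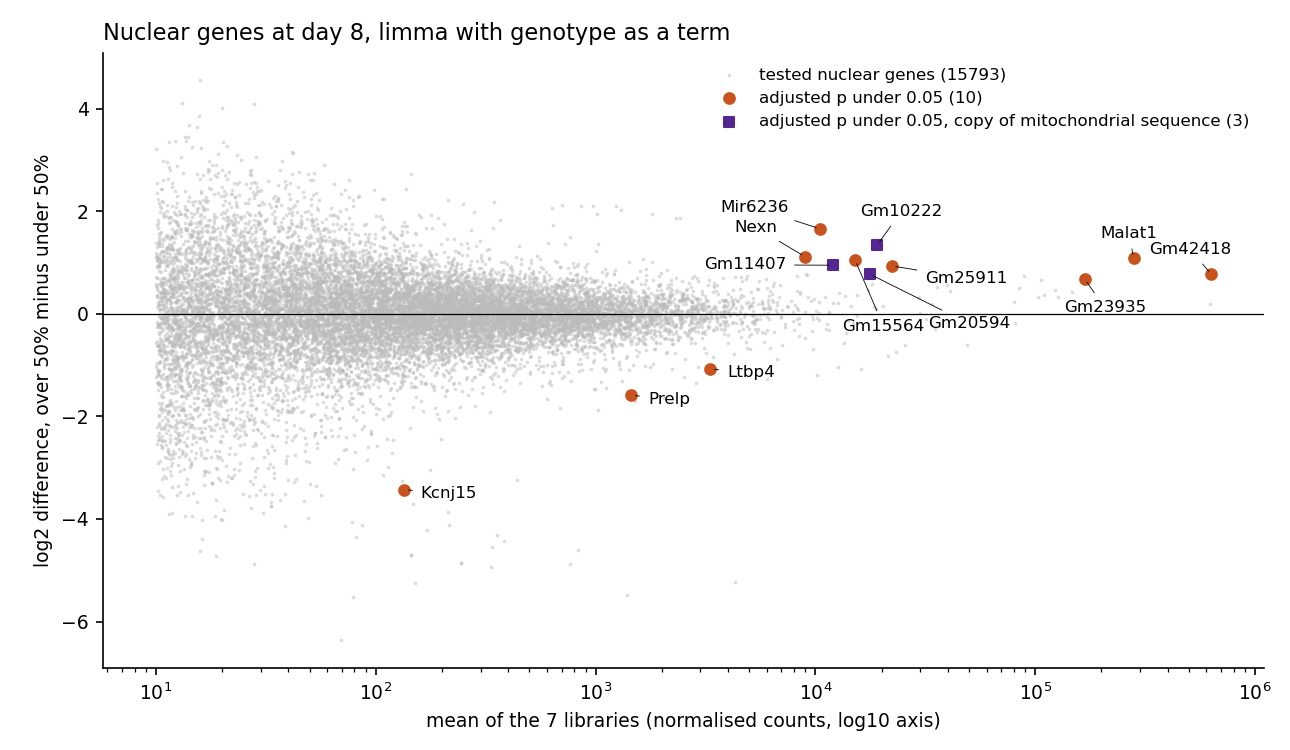
Log2 difference (over 50% minus under 50%) of 15793 tested nuclear genes against their mean over the 7 day 8 libraries (normalised counts, log10 axis). The 13 genes with an adjusted p under 0.05 are named; 10 lie above 0, of which 3 are copies of mitochondrial sequence.

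Nuclear copies of mitochondrial sequence followed the mitochondrial genes. A total of 18 nuclear loci share 31-base words with mitochondrial transcripts, and reads within the shared stretches cannot be told apart. The shared part ran from 0.413% of a locus's words (Gm28927) to 100%, with 13.2% in Gm11407 and 10.0% in Gm20594. Of the loci 16 were tested, and 15 of these had a difference above 0. As their values may in part be those of the genes that chose the libraries, their calls are not used as support. Gm10222 (chr1:24612407-24612700, minus strand), all of whose words occur in mitochondrial transcripts, had 12938, 13033, 11206 and 8233 under 50% and 32108, 28119 and 28126 over 50% normalised counts (log2 difference 1.35 ± 0.14 (SE), adjusted p = 0.00316). Gm11407 had 9328, 9381, 7977 and 7176 under 50% and 18160.3, 17138 and 15076 over 50% (0.95 ± 0.12 (SE), adjusted p = 0.00443). Gm20594 had 13021, 14048, 15428 and 11609.6 under 50% and 23288, 23025 and 22921 over 50% (0.78 ± 0.12 (SE), adjusted p = 0.0370). In all 3 every library over 50% was above every library under 50%. These copies, like the other genes with Gm names described here, lie outside the naming rule and were chosen after their values were seen. Without the copies 9 genes passed.

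The 57-base family had higher counts over 50% at every locus, and 2 of its 5 loci passed. Gm23935 had 135314 in WT 1, 122214 in WT 2, 133165 in HET 2 and 146116 in HET 3, against 217906 in WT 5, 202116 in WT 6 and 216849 in HET 6, with a log2 difference of 0.68 ± 0.09 (SE), adjusted p = 0.00866. Gm25911 had 16240.2, 14542, 16342 and 17538 under 50% and 30779.6, 28874 and 31538 over 50% (0.93 ± 0.11 (SE), adjusted p = 0.00443). The other members had smaller differences, and none of them passed: Gm24187 0.50 (adjusted p = 0.0875), Gm24270 0.46 (adjusted p = 0.0952) and Gm24245 0.33 (adjusted p = 0.226). At each of the 5 loci the lowest library over 50% was above the highest under 50%. As a share of all reads the family took 2.63% ± 0.301 (SD, n = 4) under 50% and 2.53% ± 0.0802 (SD, n = 3) over 50%, where the kinds overlapped.

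Gm42418 (chr17:39846958-39848788, plus strand), a locus that RefSeq gives as a synonym of Rn18s-rs5, related to the 18S ribosomal RNA, had the most counts among the nuclear genes that passed. Its values were 490506 in WT 1, 411409 in WT 2, 456895 in HET 2 and 609093 in HET 3, against 812260 in WT 5, 872754 in WT 6 and 775431 in HET 6 normalised counts, and its log2 difference was 0.77 ± 0.12 (SE), adjusted p = 0.0239. All 3 libraries over 50% were above all 4 under 50%, among which HET 3 was the highest. As a share of all reads it overlapped, with 3.09% ± 0.757 (SD, n = 4) under 50% and 3.43% ± 0.245 (SD, n = 3) over 50%. Mir6236 had 5513 in WT 1, 4219.5 in WT 2, 4829.8 in HET 2 and 8172 in HET 3, against 14426 in WT 5, 18711 in WT 6 and 17644 in HET 6 (1.66 ± 0.19 (SE), adjusted p = 0.00443). Gm15564, an antisense transcript (chr16:35966752-35983230, minus strand), had 10029, 9120.4, 10209 and 12962 under 50% and 18341, 20685 and 24483 over 50% (1.05 ± 0.13 (SE), adjusted p = 0.00443). Gm15564 shares 22 words of 31 bases with Lars2, the mitochondrial leucyl-tRNA synthetase gene, whose own counts were 127530, 117192, 125705 and 148503 under 50% and 158239, 171055 and 182863 over 50% (0.43 ± 0.09 (SE), adjusted p = 0.143, not passed). Neither Mir6236 nor Gm15564 overlapped between the kinds.

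Malat1 and Nexn rose among the remaining nuclear genes. Malat1 (chr19:5795690-5802672, minus strand), an abundant long noncoding RNA kept in the nucleus, had 135362 in WT 1, 190741 in WT 2, 240536 in HET 2 and 221338 in HET 3, against 411429 in WT 5, 301976 in WT 6 and 460773 in HET 6 normalised counts. Its log2 difference was 1.08 ± 0.13 (SE), adjusted p = 0.00443, with a 95% interval of 0.80 to 1.36. Every library over 50% was above every one under 50%, in both genotypes, and WT 1 was the lowest. As a share of all reads Malat1 overlapped, with 1.23% ± 0.313 (SD, n = 4) under 50% and 1.63% ± 0.340 (SD, n = 3) over 50%. Malat1 passed in 21 of 24 alternatives. Without WT 2 and HET 3 together it did not (adjusted p = 0.620), and its difference was then 1.19. Nexn (chr3:152236982-152266350, minus strand), which encodes nexilin, an actin-binding protein of the cardiac Z-disc and junctional membranes, had 5478 in WT 1, 6063 in WT 2, 7654 in HET 2 and 5033 in HET 3, against 15474 in WT 5, 10506 in WT 6 and 12850 in HET 6. Its log2 difference was 1.11 ± 0.17 (SE), adjusted p = 0.0330 (95% interval 0.73 to 1.48), and the kinds did not overlap. Nexn passed in 14 of 24 alternatives, and its adjusted p over the 24 ran from 3.97e-05 to 0.620.

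The next-ranked named genes above 0 were genes of muscle and did not pass. Dmd, which encodes dystrophin, the link between the cytoskeleton and the muscle cell membrane, had 6696, 5594, 8899 and 7467 under 50% and 10879, 11522 and 12449 over 50% (0.77 ± 0.13 (SE), adjusted p = 0.0654), with no overlap. Tpm2, a tropomyosin gene, had 829, 869, 1365 and 1630.3 under 50% and 2368, 1367 and 3063 over 50% (1.06 ± 0.21 (SE), adjusted p = 0.0952), where WT 6 lay within the range of the libraries under 50%.

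The 3 genes that fell over 50% encode matrix proteins and a potassium channel. Prelp (chr1:133910304-133921414, minus strand), a leucine-rich proteoglycan of connective tissue, had 2976 in WT 1, 2571 in WT 2, 1177 in HET 2 and 1384 in HET 3, against 595 in WT 5, 829 in WT 6 and 635 in HET 6 normalised counts. Its log2 difference was -1.59 ± 0.23 (SE), adjusted p = 0.0231 (95% interval -2.09 to -1.08). All libraries over 50% were below all under 50%, and under 50% both wild-type libraries were above both heterozygous ones. Ltbp4 (chr7:27305136-27337692, minus strand), which binds latent TGF-beta and helps to assemble elastic fibres, had 5090.1 in WT 1, 4748 in WT 2, 3595 in HET 2 and 3622 in HET 3, against 1866 in WT 5, 2369.5 in WT 6 and 2001 in HET 6. Its log2 difference was -1.08 ± 0.16 (SE), adjusted p = 0.0231 (95% interval -1.42 to -0.73), with the libraries ordered in the same way. Kcnj15 (chr16:95257558-95300260, plus strand), an inward-rectifier potassium channel, had 337 in WT 1, 345 in WT 2, 75.4 in HET 2 and 121 in HET 3, against 10.5 in WT 5, 38.7 in WT 6 and 15.2 in HET 6. Its log2 difference was -3.43 ± 0.56 (SE), adjusted p = 0.0457 (95% interval -4.65 to -2.21), and the libraries were again ordered in that way.

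Those 3 genes passed in 14, 13 and 8 of 24 alternatives. None of them passed by edgeR or when WT 1, WT 2, HET 3, WT 5 or WT 6 was left out, and each of them did when HET 2 or HET 6 was. Without WT 2 and HET 3 together their log2 differences were -1.57, -1.09 and -3.23, each with an adjusted p of 0.620. Ranked next were Slc8a3, a sodium-calcium exchanger, and Rn7s1, the RNA of the signal recognition particle. Slc8a3 had 27.2 in WT 1, 227 in WT 2, 197 in HET 2 and 34.4 in HET 3, and 0 in all 3 libraries over 50%. Against 3 reads in the shallowest of these libraries, the mean under 50% was at least 38.6-fold higher, but the gene did not pass (adjusted p = 0.0551). Rn7s1 had 1272, 1124, 1909.6 and 1158 under 50% and 630.2, 455 and 385 over 50% (-1.47 ± 0.26 (SE), adjusted p = 0.0645), and its near-identical copy Rn7s2 had the same difference of -1.47. The authors' counting could divide reads between such copies, so single values of Rn7s1 are uncertain.

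**Figure D4:**
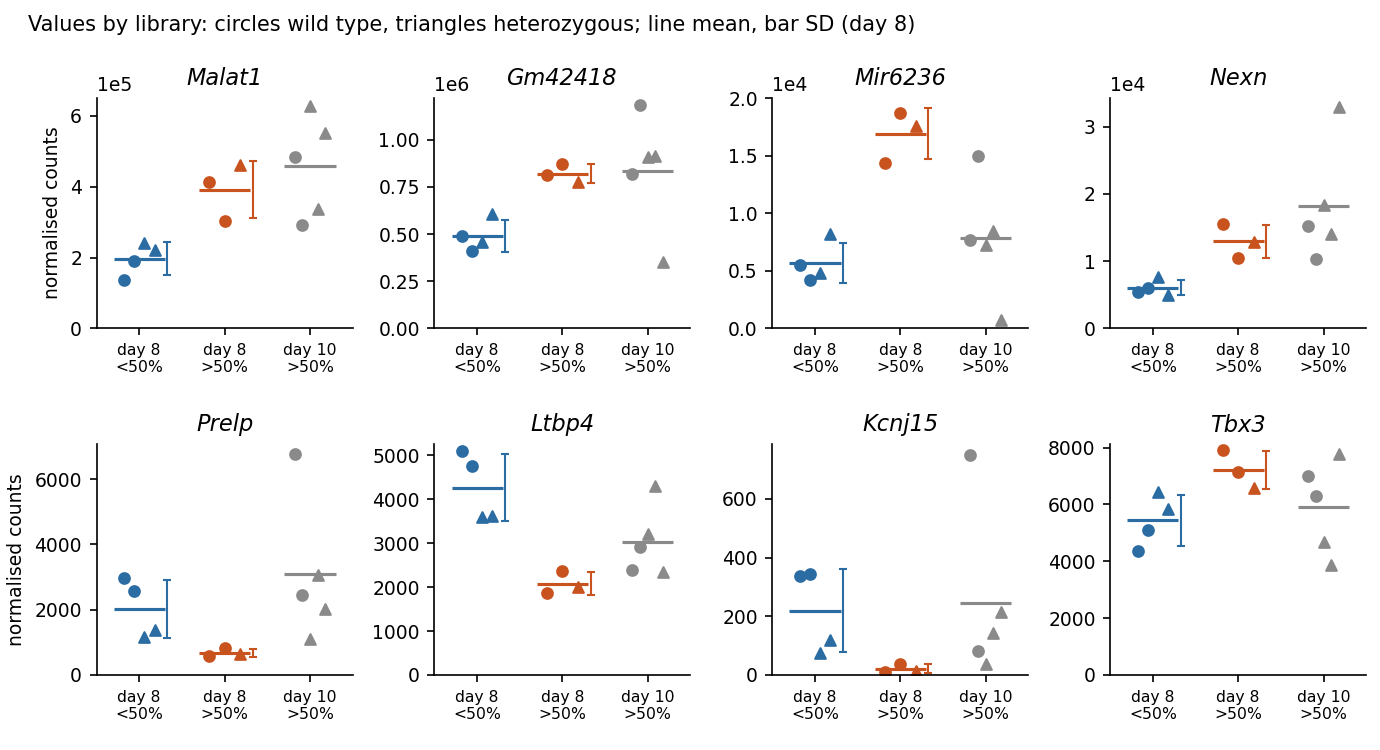
Normalised counts of 8 genes in each library (circles wild type, triangles heterozygous; line mean, bar SD for day 8), for day 8 under 50%, day 8 over 50% and day 10. Over 50% at day 8, Malat1, Gm42418, Mir6236, Nexn and Tbx3 lie above, and Prelp, Ltbp4 and Kcnj15 below, every library under 50%; at day 10, where all libraries are over 50%, Prelp runs from 1112 to 6766 and Mir6236 from 744 to 14973.

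The day 10 libraries, all over 50% and not used in the choice, did not resemble the day 8 libraries over 50% in every gene. Age differs between them, so the values are only set side by side. Prelp had 1112 to 6766 normalised counts at day 10, above all 3 day 8 libraries over 50%. Kcnj15 had 36.5 to 749 at day 10 and Ltbp4 2352 to 4301, both reaching into the range of the day 8 libraries under 50%. Malat1 (291056 to 626239) and Nexn (10393 to 32946) covered the range of the day 8 libraries over 50%. Mir6236 (744 to 14973) went below the lowest day 8 library.

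Nuclear genes of the respiratory chain were spread to both sides of 0. Of 80 tested nuclear genes of complexes I to V, 43 had a log2 difference above 0 and 37 below, with a median of 0.030 beside 0.0017 over all tested genes. None passed by limma (background 0.0823%); at an unadjusted p under 0.05 there were 2 higher and 3 lower, edgeR called 0 and DESeq2 1. That gene was Atp5b, the catalytic beta subunit of ATP synthase, with 34134 in WT 1, 23884 in WT 2, 27334 in HET 2 and 19952 in HET 3, against 13720.4 in WT 5, 16885 in WT 6 and 14486 in HET 6 (-0.82 ± 0.16 (SE), adjusted p = 0.0952 by limma). Every library over 50% was below every library under 50% for Atp5b, whereas mt-Atp6, whose product joins the same enzyme, overlapped with a ratio of 1.17. The median was 0.043 for complex I (36 genes), -0.091 for complexes II and III (14), 0.14 for complex IV (14) and -0.12 for complex V (16). Cox6a2, the heart and muscle isoform of a complex IV subunit, had 1593, 1393, 2239 and 1945 under 50% and 2853, 2880.3 and 2049 over 50% (0.56 ± 0.21 (SE), adjusted p = 0.367), which overlapped. The summed level of the complex IV list was 8047 to 9614 under 50% and 9988 to 10818 over 50%, and that of the complex V list 33072 to 47808 under 50% and 26108 to 30838 over 50%, so that the former was higher and the latter lower over 50% without overlap. Atp5b held most of the complex V sum in each day 8 library, so that sum largely repeats this gene. With Cox6a2 left out of the complex IV sum, and with Atp5b left out of the complex V sum, the kinds overlapped in each. Without WT 2 and HET 3 the median over the 80 genes was -0.061. Leaving out 1 library at a time, the median ran from 0.0023 (without HET 3) to 0.10 (without WT 1) for complex I, from -0.18 (without WT 2) to 0.078 (without HET 6) for complexes II and III, from 0.025 (without WT 6) to 0.26 (without HET 6) for complex IV and from -0.14 (without WT 2) to 0.013 (without WT 1) for complex V. With scaling to nuclear reads these medians were -0.10, -0.24, -0.0041 and -0.27 in that order, beside -0.14 over all genes.

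Genes of the machinery that makes mitochondrial RNA and protein also lay on both sides of 0. Mitochondrial ribosomal protein genes were higher in 37 and lower in 34 of 71 cases (median 0.021), and their summed level was 7246 to 9154 under 50% and 7455 to 8207 over 50%. Genes of mitochondrial DNA maintenance and transcription had a summed level of 1242 to 1471 under 50% and 1279.9 to 1379.9 over 50%, with 8 of 14 higher (median 0.053 and mean -0.00063, of opposite sign). Among them Tefm, the elongation factor of mitochondrial RNA polymerase, had 160.0, 90.2, 97.6 and 48.2 under 50% and 17.8, 30.5 and 44.7 over 50% (-1.63 ± 0.58 (SE), adjusted p = 0.352), with no overlap. Of 18 genes of mitochondrial RNA processing 9 were higher (median 0.061), and of 21 of mitochondrial quality control 14 were (median 0.11). Regulators of mitochondrial biogenesis were higher in 9 of 12 (median 0.26); Ppargc1b, a coactivator of such genes, had 102, 164, 145 and 173 under 50% and 315, 264 and 331 over 50% (1.11 ± 0.32 (SE), adjusted p = 0.234), with no overlap. No gene of these lists passed by limma, nor by edgeR or DESeq2. Over all 254 tested nuclear genes of the mitochondrial lists, the tricarboxylic acid cycle and fatty acid oxidation included, 134 were higher and 120 lower, with a median of 0.030, 6 and 12 at an unadjusted p under 0.05, and 0 that passed by limma. With 1 library left out in turn, the medians ran from 0.0036 (without HET 2) to 0.10 (without HET 6) for ribosomal proteins and from -0.085 (without WT 5) to 0.081 (without WT 1) for DNA maintenance. They ran from -0.054 (without WT 2) to 0.30 (without HET 6) for RNA processing, from 0.028 (without HET 3) to 0.21 (without WT 1) for quality control and from 0.19 (without WT 1) to 0.37 (without HET 6) for biogenesis. With scaling to nuclear reads these 5 medians were -0.12, -0.090, -0.084, -0.037 and 0.12 in that order.

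Lists of fuel metabolism had medians below 0, without any call by limma or edgeR. In glycolysis 12 of 18 genes were lower (median -0.18), and Ldha, lactate dehydrogenase A, had 7804, 4804, 5456 and 6082 under 50% and 3446, 4220.2 and 3563 over 50% (-0.69 ± 0.17 (SE), adjusted p = 0.184). In fatty acid oxidation 13 of 21 were lower (median -0.14), and Slc25a20, the carrier that takes acylcarnitines into mitochondria, had 1106, 679.6, 801 and 1005 under 50% and 416, 297 and 484 over 50% (-1.14 ± 0.26 (SE), adjusted p = 0.146). Both genes stood lower in every library over 50% than in any under 50%, and DESeq2 called both (adjusted p = 0.0266 and 0.00370). The tricarboxylic acid cycle had 11 of 17 lower (median -0.072). With 1 library left out the medians ran from -0.34 (without WT 2) to 0.026 (without HET 6) for glycolysis, from -0.24 (without WT 5) to -0.06 (without HET 6) for fatty acid oxidation and from -0.17 (without WT 6) to -0.0001 (without HET 6) for the tricarboxylic acid cycle. Cytosolic ribosomal protein genes were lower in 48 of 76 (median -0.11), with 3 higher and 7 lower at an unadjusted p under 0.05, and a median from -0.15 (without HET 2) to -0.038 (without WT 5).

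**Figure D5:**
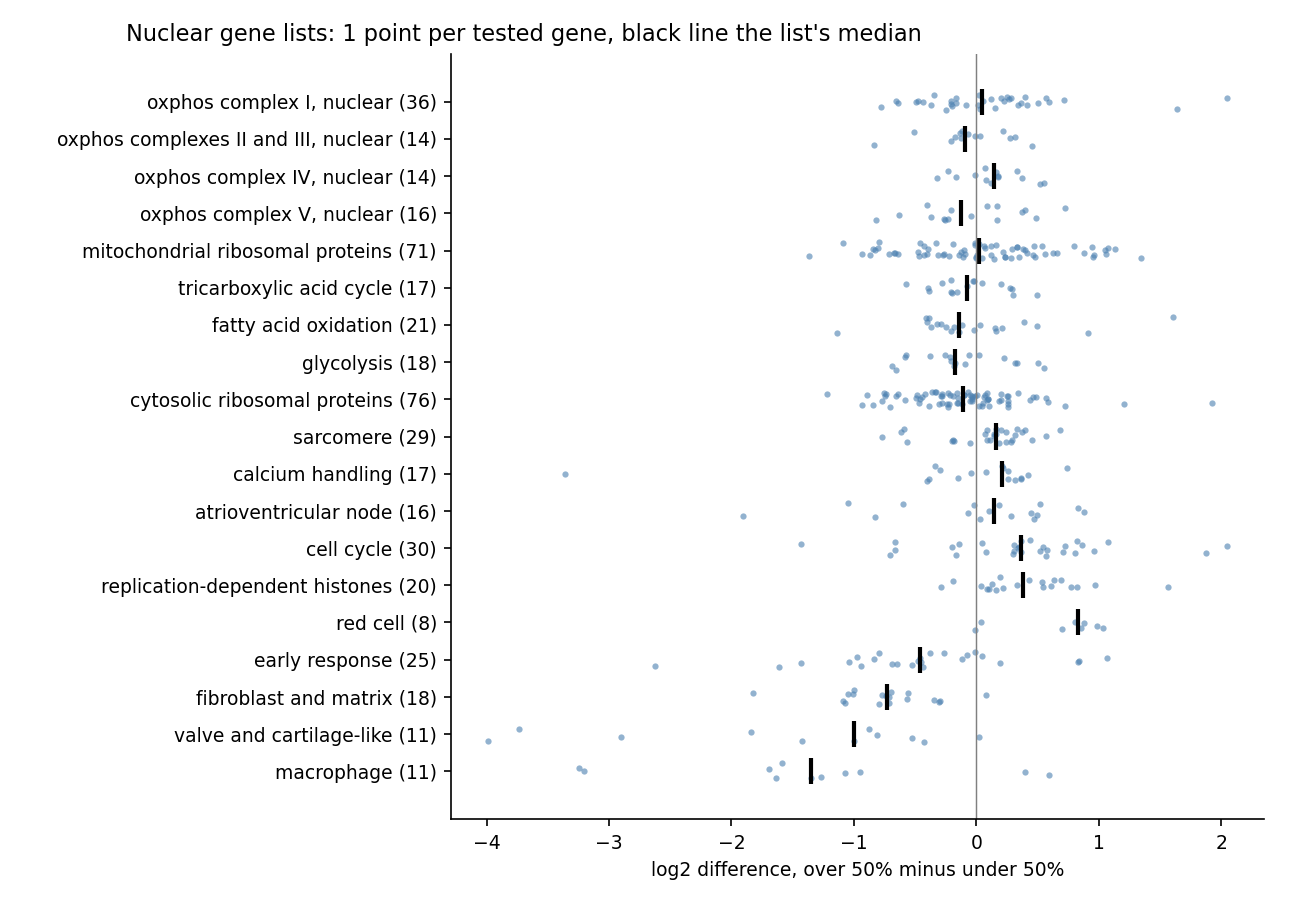
Log2 difference (over 50% minus under 50%) of each tested nuclear gene in 19 lists, with the number tested in parentheses; the black line is the list's median. The lists of respiratory chain complexes have medians from -0.12 to 0.14, while the fibroblast, valve and macrophage lists lie at -0.73, -1.0 and -1.35.

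The summed levels of sarcomere genes and of calcium handling genes overlapped between the kinds. The sarcomere genes summed to 899251 to 1180350 under 50% and 1123380 to 1296560 over 50%, and 21 of 29 were higher (median 0.16). Tpm1, a tropomyosin gene, had 27819.7, 27282, 42692 and 37924 under 50% and 46039, 47532 and 48691 over 50% (0.57 ± 0.12 (SE), adjusted p = 0.129), with no overlap. Of the calcium handling genes 10 of 17 were higher, with a median of 0.21 and a mean of -0.10, which differ in sign. Trdn, which encodes triadin of the calcium release complex, had 3717, 3782, 4444 and 3043 under 50% and 7620.4, 5750.4 and 5653 over 50% (0.74 ± 0.17 (SE), adjusted p = 0.152), with no overlap. In the working myocardium list 9 of 15 were lower (median -0.34, 0.025 with genes of a mean of at least 50 alone). Atp2a2, the calcium pump of the sarcoplasmic reticulum, had 65194, 51207, 59061 and 53598 under 50% and 30573, 47801 and 36689 over 50% (-0.60 ± 0.15 (SE), adjusted p = 0.165), lower over 50% with no overlap. Atp2a2 was counted in this list and not among the calcium handling genes. The working myocardium list summed to 65457 to 81560 under 50% and 44428 to 62108 over 50%, with no overlap. Atp2a2 held most of the sum in each of these libraries, and with Atp2a2 left out the sums overlapped between the kinds. No gene of these 3 lists passed by limma or edgeR. At an unadjusted p under 0.05 there were 4 higher and 1 lower sarcomere genes, 3 and 2 calcium handling genes, and 3 and 2 working myocardium genes, and DESeq2 called 2, 2 and 1. With 1 library left out the medians ran from 0.042 (without WT 2) to 0.27 (without WT 1) for sarcomere, from 0.073 (without WT 2) to 0.22 (without HET 2) for calcium handling and from -0.32 (without WT 6) to -0.10 (without WT 2) for working myocardium.

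Of 18 listed markers of the node that the label names, 16 had a mean of at least 10, and no other tissue was compared. Hcn4, the pacemaker channel, had 845 to 3656 normalised counts over the 7 libraries, and Cacna1g, the T-type calcium channel, had 4479 to 8319, while Isl1 was at 0 in 5 of them and reached 22.9 in HET 3. Of 16 tested node markers 10 were higher over 50%, with a median of 0.14 and a mean of -0.015, which differ in sign. With 1 library left out the median ran from 0.076 (without WT 5) to 0.63 (without HET 6), and with scaling to nuclear reads it was -0.0015. None of these markers passed by limma or edgeR. At an unadjusted p under 0.05, 5 were higher and 2 lower (4.76% and 5.66% of all tested genes). DESeq2 called 1 (1.98% of all), namely Bmp4, which was lower over 50% (DESeq2 adjusted p = 0.0289). The log2 difference of Bmp4 was -1.90 ± 0.55 (SE), adjusted p = 0.231 by limma. For Bmp4 the kinds overlapped, with HET 6 above WT 1. The summed level of the list overlapped, with 52484, 62852, 67749 and 59828 under 50% and 72768, 72384 and 42656 over 50%. Tbx3, the T-box factor whose allele is modified in HET pups and whose regulatory DNA drives the transgene, had 4357 in WT 1, 5105 in WT 2, 6436 in HET 2 and 5846 in HET 3, against 7924 in WT 5, 7143 in WT 6 and 6571 in HET 6. The kinds did not overlap, but the log2 difference of 0.44 ± 0.15 (SE), adjusted p = 0.338 did not pass; it was 0.67 within wild type and 0.10 within HET. A count over the whole gene does not separate the modified from the intact allele. Genes of the His bundle and Purkinje fibres had a median of 0.077, with 9 of 14 higher, 0 of the 14 with an unadjusted p under 0.05 and 0 called by limma, edgeR or DESeq2, and the median ran from -0.073 (without WT 6) to 0.44 (without HET 6) with 1 library left out.

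Nearly all markers of fibroblasts and extracellular matrix had differences below 0, and both wild-type libraries under 50% stood above the rest. Of 18 tested genes 17 had a difference below 0 (49.9% of all tested genes did), with a median of -0.73. At an unadjusted p under 0.05, 12 were lower (5.66% of all), but none passed by limma or edgeR. By DESeq2 7 were lower (1.17% of all). The summed level of the list was 188545, 202553, 92663 and 97723 under 50% and 91382, 86948 and 102380 over 50%. WT 1 and WT 2 had about the same sum as each other, and HET 2 and HET 3 lay within the range of the libraries over 50%. Mfap5, a microfibril protein, had 388, 429, 155 and 407 under 50% and 146, 105 and 63.0 over 50% (-1.82 ± 0.38 (SE), adjusted p = 0.121), with no overlap. Col1a1, a chain of fibrillar collagen chosen after its values were seen, had 37959, 47447, 12981 and 15375 under 50% and 15415, 14566 and 18622 over 50% (-0.74 ± 0.28 (SE), adjusted p = 0.384). Its log2 difference was -1.50 within wild type and 0.40 within HET, a gap that was not tested. At day 10 the list summed to 104676 to 213097, above all 3 day 8 libraries over 50%. Without WT 2 and HET 3 the list had 1 gene above and 17 below 0, with a median of -0.62, and with 1 library left out the median ran from -1.14 (without HET 6) to -0.57 (without WT 6). Prelp and Ltbp4 are connective tissue genes outside the list, and the part of these markers in their differences was not tested.

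Smaller marker lists of other heart cells had medians below 0. Valve and cartilage-like genes were lower in 10 of 11 cases (median -1.0), and Comp, a cartilage matrix protein, had 122, 138, 32.8 and 32.1 under 50% and 3.15, 0 and 16.3 over 50% (-3.98 ± 1.05 (SE), adjusted p = 0.200). WT 1 and WT 2 stood highest for Comp, and the kinds did not overlap. With 1 library left out the list's median ran from -3.65 (without HET 6) to -0.47 (without WT 2). The summed level of the valve list overlapped, at 10451, 11360.5, 8166 and 7645 under 50% and 8259, 9011 and 6043 over 50%. Macrophage genes were lower in 9 of 11 (median -1.35, with 1 library left out from -2.57 (without HET 6) to -0.82 (without WT 6)), but their summed level overlapped, at 1628, 2974, 1068 and 1948 under 50% and 1387, 1145 and 1101 over 50%. Lyve1, a hyaluronan receptor of resident macrophages and lymphatic vessels, had 248, 1514, 287 and 642 under 50% and 281, 5.09 and 87.4 over 50% (-3.25 ± 1.01 (SE), adjusted p = 0.281), and the macrophage markers C1qa, Fcgr1 and Cd14 were at most 13.9 in every library. Rgs5, a pericyte marker, had 15399, 9932, 9273 and 11955 under 50% and 6582, 6809 and 8049.8 over 50% (-0.69 ± 0.17 (SE), adjusted p = 0.184), with no overlap, while the smooth muscle and pericyte list had 7 of 13 lower (median -0.27, 0.12 without WT 1). Endothelial genes had a median of -0.064, from -0.38 (without HET 6) to 0.0088 (without WT 6) with 1 library left out, and summed to 6285 to 8169.6 under 50% and 6065 to 6989 over 50%. The endocardial list, led by Vwf with 37.8, 87.1, 209 and 83.4 under 50% and 5.24, 2.03 and 46.7 over 50% (-2.84 ± 0.74 (SE), adjusted p = 0.192), had a median of -0.42, and 0.15 without WT 6. The endocardial sum overlapped, at 2968, 2727, 2642 and 2572 under 50% and 2828, 2511 and 3181.5 over 50%. No gene of these 5 lists passed by limma or edgeR. At an unadjusted p under 0.05 the counts were 2 lower valve genes, 4 macrophage genes, 2 endothelial and 2 endocardial genes, and 1 higher and 4 lower smooth muscle genes, and DESeq2 called 2, 0, 0, 1 and 1.

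Markers of blood and nerve had few counts. Red cell genes were higher over 50% in 7 of 8 cases (median 0.83), with Hba-a1, an alpha globin gene that shares reads with Hba-a2, at 252, 599, 494 and 985 under 50% and 1101, 1429 and 667 over 50% (0.99 ± 0.40 (SE), adjusted p = 0.413). HET 3 had more Hba-a1 than HET 6, so the kinds overlapped, and haemoglobin took 0.00724% to 0.0276% of nuclear reads under 50% and 0.0171% to 0.0335% over 50%. Schwann cell markers summed to 115 to 548 under 50% and 161 to 345 over 50%, and neuronal markers to 279 to 335 under 50% and 211 to 284 over 50%, with Phox2a, Slc18a3 and Npy at 0 in all 7 libraries. Lymphocyte and granulocyte markers summed to 2.22, 93.9, 26.2 and 304 under 50% and 11.5, 16.3 and 31.5 over 50%, highest in HET 3 and WT 2. The median and mean difference had opposite signs for Schwann cell markers (0.0065 and -0.48) and neuronal markers (-0.61 and 0.40), and each median crossed 0 when single libraries were left out, from -0.61 (without HET 6) to 0.30 (without WT 6) and from -0.73 (without HET 2) to 0.19 (without WT 5). The red cell median ran from 0.51 (without WT 1) to 1.11 (without HET 3). The epicardial and adipocyte lists had 3 and 2 tested genes, with Adipoq and Ucp1 at 0. No gene of these 6 lists passed by limma, edgeR or DESeq2, and at an unadjusted p under 0.05 there were 4 higher red cell genes, 1 lower Schwann cell gene, and 2 higher and 1 lower neuronal genes.

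Genes of cell division had a median above 0. Of 30 cell cycle genes 23 were higher (median 0.37), 5 of them at an unadjusted p under 0.05 (4.76% of all tested genes) and none adjusted by limma or edgeR. With 1 library left out the median ran from 0.15 (without HET 6) to 0.47 (without WT 2). Mcm5, a subunit of the replicative helicase, had 40.5, 22.9, 16.4 and 45.9 under 50% and 109, 176 and 105 over 50% (2.04 ± 0.56 (SE), adjusted p = 0.215), with no overlap, and it was the 1 gene of the list that passed by DESeq2. The list's summed level was 10141, 9962, 9076 and 7274 under 50% and 11263, 10412 and 13481 over 50%, without overlap. Replication-dependent histone genes, whose mRNAs lack a poly(A) tail, were higher in 18 of 20 (median 0.38), but the median was -0.50 without HET 6, and 0 genes had an unadjusted p under 0.05. Their summed level was 2056, 2016, 738 and 1272 under 50% and 2277, 1896 and 2126 over 50%, so that HET 2 and HET 3 alone were low.

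The lists of early response and stress genes had medians below 0, which with 1 library left out ran from -0.60 (without HET 6) to -0.25 (without WT 6) for early response and from -0.42 (without WT 2) to -0.12 (without HET 6) for heat shock. The hypoxia and p53 medians crossed 0 in this way, from -0.26 (without WT 6) to 0.11 (without WT 5) and from -0.18 (without WT 5) to 0.03 (without HET 6). Of 25 early response genes 20 were lower (median -0.46), 4 of them at an unadjusted p under 0.05 and none adjusted by limma, edgeR or DESeq2. Egr1, a transcription factor induced within minutes of a stimulus, had 1214, 2252, 529 and 458 under 50% and 608, 378 and 584 over 50% (-0.97 ± 0.38 (SE), adjusted p = 0.395), high in WT 1 and WT 2 alone. Of 20 heat shock and unfolded protein genes 12 were lower (median -0.22), among them Hspa5, the chaperone of the endoplasmic reticulum, with 3676, 3338, 1706 and 7028 under 50% and 1856, 1037 and 1320.0 over 50% (-1.36 ± 0.37 (SE), adjusted p = 0.211). HET 3 had by far the most Hspa5. The hypoxia list had a median of -0.021 and the p53 and apoptosis list -0.067 (mean 0.085, of opposite sign). No gene of these last 3 lists passed by limma, edgeR or DESeq2, and at an unadjusted p under 0.05 there were 2 higher and 3 lower heat shock genes, 1 lower hypoxia gene and 1 lower p53 gene.

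Long noncoding RNAs had differences above 0 more often than nuclear genes as a whole. Of 1010 tested genes of the long noncoding types of GENCODE (lincRNA, antisense, processed transcript and their kin) 661 had a difference above 0, with a median of 0.38, beside 50.1% and 0.0017 over all tested genes and -0.013 over 12768 protein-coding ones. The kinds did not overlap for 73 higher (7.23%) and 20 lower (1.98%) long noncoding genes, beside 4.69% and 5.05% over all. Where the mean was 50 or more, the medians were 0.39 (310 long noncoding) and -0.0036 (9599 protein coding). The long noncoding median was 0.39 after thinning to a common nuclear depth and 0.60 without WT 2 and HET 3. Only 3 genes of the class passed, namely Malat1, Gm42418 and Gm15564. The chosen nuclear-retained RNAs, a list led by Malat1, had 7 of 12 higher (median 0.32, with 1 library left out from 0.18 (without WT 1) to 0.65 (without HET 6)). Of 22 small structured RNAs listed, 6 were tested, of which 3 were higher and 3 lower (median 0.054 and mean -0.021, of opposite sign, the median with 1 library left out from -0.29 (without HET 6) to 0.23 (without WT 5)). Sense-intronic genes, which lie within introns, had a median of 0.66, with 31 of 41 higher. Processed pseudogenes, which are spliced copies of mRNAs, had a median of -0.026 over 1547 genes.

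Medians over 5 equal bins of protein-coding genes (mean of at least 50) differed little with transcript length and base composition. By exonic length they were -0.031, -0.042, -0.029, 0.0044 and 0.053 from the shortest to the longest. By GC content they were 0.063, 0.0028, -0.03, -0.029 and -0.028 from the lowest to the highest.

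At a common depth of 9860220 nuclear reads the libraries under 50% had 19257 (WT 1), 24128 (WT 2), 20075 (HET 2) and 26930 (HET 3) nuclear genes with at least 1 read. Those over 50% had 20501 (WT 5), 19675 (WT 6) and 20881 (HET 6). The means differed by -2245 genes (two-sided exact permutation p = 0.514; the smallest p that 4 against 3 libraries allow is 0.0571). WT 2 and HET 3 were the highest of all 7, and without them the difference was 686, in the other direction.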

How the data were processed

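RNA of 12 laser-captured atrioventricular node samples was sequenced, and 7 of day 8 were compared here. Per the submitters' processing notes, STAR, DESeq2 and mm10 were used; tool versions, the counting program, its strand setting and its gene models were not stated in any source read. The deposited table holds normalised signal values, 1 per gene and sample. From the values themselves, each column is whole reads over a constant that equals the median-of-ratios factor of all 12 libraries, with 0 written as 0.1; whole reads were recovered from the deposited values for 100% of entries within 0.001. Of 41128 genes 40254 matched GENCODE M21, from which types and positions (GRCm38) were taken.

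Libraries were parted at 50% of the column sum in mitochondrially encoded genes, and nuclear genes with a mean of at least 10 were tested on log2(value + 1) with limma 3.58.1 (R 4.3.3; trend option, genotype as a term, two-sided, Benjamini-Hochberg adjustment over all 15793 genes, threshold 0.05). A log2 difference is on that scale and understates the change of low genes. On recovered reads, edgeR 4.0.16 (quasi-likelihood test, 7 genes) and DESeq2 1.42.0 (306 genes) were alternatives, beside other scalings, filters, pseudocounts, designs and leaving out libraries. Detected genes were counted after thinning to 9860220 nuclear reads. Copies of mitochondrial sequence were found as transcripts sharing 31-base words with it. Depth limits low genes; intervals and floors (3 reads) cover counting error or the spread between libraries only.

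Genes were named by rule: up to 10 in each direction past the threshold with an official name and a mean of at least 50, filled to 5 by smallest p, the member with the smallest p of each of 38 lists (768 genes), Tbx3, the mitochondrially encoded genes, and members of the cell type marker lists as levels with no test (Hcn4, Cacna1g, Isl1, C1qa, Fcgr1 and Cd14). Genes named outside it are said to have been chosen after their values were seen; this also holds for Gm24187, Gm24270, Gm24245, Lars2, Rn7s2, Col1a1 and Col1a2. The parting of the libraries, the members and the lists were chosen with earlier results of these data known. The computation was tested on simulated data.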

Additional observations from a re-analysis of the deposited data

Results flagged for a closer look

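Among 102 quantities checked for a library far from the others of its kind, 4 had one, and chance alone does this for about 1 in 20 groups. Hspd1, a mitochondrial chaperone gene, had 1860.2 normalised counts in WT 1, far from the other libraries under 50%. Mfap5 was low in HET 2, at 155. Cd79a, a B cell receptor gene, reached 208 in HET 3. Lars2 and Gm15564 together took 1.11% of all reads in HET 3.

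For 3 genes the log2 difference between the kinds of library lay on opposite sides of 0 in the genotypes, with every library moving that way; the gap between genotypes was not tested, and HET has 1 library over 50%. Egr1 had -1.78 within wild type and 0.25 within HET. Col1a1 had -1.50 within wild type and 0.40 within HET. Col1a2, another collagen chain, had -1.91 within wild type and 0.17 within HET.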

How the results depend on the processing

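Beside 13 genes that passed, the count was 29 with scaling to nuclear reads, 7 with no filter on low genes, 7 by edgeR, 306 by DESeq2, 5 with the share as a number, 0 by limma over all 12 libraries with age as a term (948 at an unadjusted p under 0.05), 74 in wild type alone and 39 at an adjusted p under 0.10. Leaving out each library in turn gave 2 to 113 genes, the latter without HET 6, where the wild-type libraries alone fix the comparison. An alternative chosen after seeing the data, leaving out WT 2 and HET 3 together, gave 0 by limma (1262 unadjusted) and turned the difference in detected genes from -2245 to 686; it also took Cd79a to 0. Leaving out single libraries gave -3359 to -801 detected genes. The cause was not tested. Other scalings, TMM included, gave 13 to 19 genes, and thinning 12. Of 1481 alternatives for named genes 1 turned direction, and of 911 for list medians 46 moved by more than 1 SD of the list's level among libraries of a kind. Low genes are limited by depth, since 1 read is worth more over 50%. No paired analysis was possible because no replicate number occurs both under and over 50%.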
